A study of Mus musculus with 24 samples.

Results

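The adult control cells of this study were thymic lymphocytes of female and male Balb/c mice, 4 weeks old, with both sexes co-hybridised to the same slide. Their female:male expression ratios were compared with those of ES cells after 21 days of differentiation, when female PGK12.1 cells were co-hybridised with male CCE/R cells. The comparison held 6 of the 24 arrays of the series: lymphocyte replicates U and V, and day 21 replicates Q, R, S and T, all with the female sample in Cy5 and the male sample in Cy3. It was made over the 7529 cDNA clones with a value on both lymphocyte arrays and on at least 3 of the 4 day 21 arrays, which were 49.4% of the 15247 clones listed, and 7221 of them had a value on all 6 arrays. The remaining day 21 array, replicate P, had the female sample in Cy3 and was kept out of the comparison and used beside it. The sources do not say whether the ratios of arrays with the female sample in Cy3 (P, N and O of day 15, and A of day 0) had been turned before deposit. They are given as deposited, and every sign on these arrays, of an M value or of a correlation, would be the opposite if they had not been turned. As deposited, P correlated with Q, S and T with r = 0.72, 0.53 and 0.55, and with R with r = 0.07.

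The ES cells had been replated on non-adherent plastic dishes without LIF, the factor that keeps ES cells undifferentiated. Each sex of the ES cells was a single line. In the study's methods the female line is a hybrid of strains and the male line is not. Sex, cell line and strain background thus differed together at day 21 and cannot be told apart. The lymphocytes of both sexes came from mice of the same strain. The labels give the day and the sex but not the line, which was taken from the number of replicates per day in the study. Neither the labels nor the methods state how many mice lay behind a lymphocyte sample or whether mice were pooled. The study describes its lymphocyte data as coming from biological replicates, but the labels do not say how U and V differ, so the p-values measure the spread between these arrays. The labels describe removal of abnormal spots by hand for all 6 arrays compared. The values are M values, log2 ratios that are likely female:male from the study's definition, here with the median of each array subtracted, so that a clone at 0 had the ratio of the typical clone and a clone at 1 was 2-fold higher in the female sample.

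Thymic lymphocytes are mostly T cells in the course of maturation. In such adult female cells one X chromosome has long been inactive, while in female ES cells both X chromosomes are active and one is silenced during differentiation. A culture that has differentiated for weeks without LIF holds a mixture of cell types, and its makeup can differ from line to line and from culture to culture. The deposited rows carry clone names only, and 0 of the 15247 names matched the table of mouse genes used here, so the clones are described without genes or chromosomes, X-linked clones were not separated, and the cell types could not be checked against marker genes. In RNA from whole populations, fewer cells of a type and less RNA per cell cannot be told apart.

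The female:male ratios of lymphocytes lay close to 0 and those of day 21 cells were widely scattered. Over the 7221 clones on all 6 arrays, the spread of the M values, as the scaled median absolute deviation, was 0.213 on lymphocyte array U and 0.253 on array V. It was 0.792 on day 21 array Q, 0.609 on R, 0.675 on S and 0.689 on T. The 2 groups of arrays did not overlap, and the mean spread was 0.233 ± 0.029 (SD, n = 2) in lymphocytes and 0.691 ± 0.076 (SD, n = 4) at day 21, 2.97 times as wide. The two-sided exact permutation test over arrays gave p = 0.133, the smallest p that 2 arrays against 4 allow.

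Differences of 2-fold or more between the sexes were rare in lymphocytes. They were found for 0.691% of the clones on U and 1.50% on V, against 27.7% on Q, 13.5% on R, 19.1% on S and 20.5% on T. Array P, with the dyes the other way round, was the widest of the day 21 arrays, with a spread of 0.896 and 29.8% of clones at 2-fold or more. The ratio between the groups was much the same for typical and for extreme clones. The median size of the group mean was 0.149 in lymphocytes and 0.431 at day 21, the 90th percentile was 0.418 and 1.28, and the 99th percentile was 0.909 and 2.95, which were 2.90, 3.06 and 3.24 times as large at day 21.

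The narrow spread also set lymphocytes apart from ES cells of the earlier days. Over the 3659 clones present on both lymphocyte arrays and on all 16 ES cell arrays of the same dye orientation, the mean spread was 0.205 in lymphocytes and 0.495 in ES cells, whose arrays ranged from 0.388 to 0.664. No ES cell array was as narrow as either lymphocyte array (two-sided exact permutation test, p = 0.0131, the smallest that 2 against 16 arrays allow). The 16 arrays include Q, R, S and T of day 21, and the mean and the test take all days as one group. The earlier days alone were not tested. The ES cell arrays include undifferentiated cells. The lines were taken to be PGK12.1 and CCE/R throughout, which the labels do not state.

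**Figure D1:**
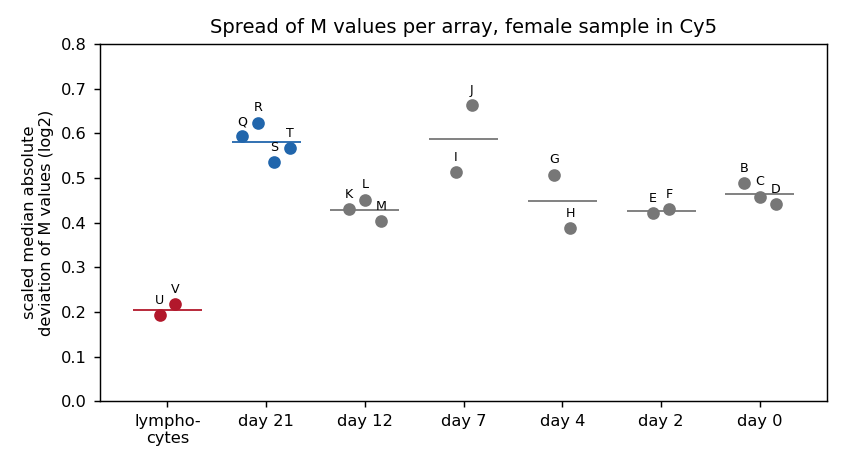
Spread of the M values (scaled median absolute deviation, log2, vertical axis) of each array with the female sample in Cy5, by cell type and day of differentiation, over 3659 clones present on all 18 arrays. Points are arrays, marked with the replicate letter, and lines are group means. The ES cell arrays lie between 0.388 and 0.664 and both lymphocyte arrays lie below them.

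In absolute terms the lymphocyte arrays differed less from each other than those of day 21, and their M values were smaller. The median SD of a clone between arrays was 0.073 between U and V and 0.413 among Q, R, S and T. U and V correlated with r = 0.71 across 7529 clones and gave the same sign for 76.9% of them. Relative to their own spread they were no closer than Q, S and T were: r was 0.74 between Q and S, 0.80 between Q and T and 0.82 between S and T, and 0.22 to 0.57 between R and each of the others. By Pearson's r, replicate R was the farthest from the other day 21 arrays. By rank and sign it was about as close to S as Q was. Spearman's rho was 0.62 for R with S and 0.63 for Q with S, with the same sign for 73.7% and 72.7% of clones. With Q and T, R had a rho of 0.27 and 0.44. Several results are also given without R.

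Clones were next tested within each cell type for a ratio other than that of the typical clone (limma, Benjamini-Hochberg adjusted p under 0.05). In lymphocytes 1010 clones passed (13.4% of those tested), of which 505 (6.71%) were higher and 505 (6.71%) lower in the female sample, with a median size of 0.45, or 1.36-fold. At day 21, 1457 clones passed (19.4%), of which 756 (10%) were higher and 701 (9.31%) lower, with a median size of 1.12, or 2.18-fold. The clones called in lymphocytes thus differed by less than those called at day 21, but each group was tested against its own spread. The median SE was 0.066 in lymphocytes and 0.209 at day 21, so a larger mean was needed for a call at day 21. Both counts depended on the arrays and on the spread they were tested against: with U or V as the only lymphocyte array, whose spread then had to be taken from the day 21 arrays, no clone passed (60 clones without U and 45 without V had an unadjusted p under 0.05), no clone passed at day 21 without Q, S or T (2753, 1826 and 1904 at an unadjusted p under 0.05), and 1868 passed without R. With all 6 arrays in one model with a shared spread, 1 clone passed in lymphocytes and 2722 at day 21.

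Clones called in both cell types numbered 291, which was 28.8% of the lymphocyte calls and 20.0% of the day 21 calls, beside 19.4% and 13.4% of all clones tested. Of these, 212 (72.9%) had the same direction, with 177 higher and 35 lower in the female sample of both cell types, and 79 had opposite directions. Clones higher in both were therefore the larger group by far.

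The difference between the cell types was tested in its own right, with the 6 arrays in one model. No clone passed (0% of 7529; limma, smallest adjusted p = 0.105), and 1721 clones had an unadjusted p under 0.05. The median SE of the difference was 0.31. The model gives both groups a shared spread, although the lymphocyte arrays differed much less from each other, and 1478 clones passed when each group was given its own weight. Without replicate R, 917 clones passed, of which 323 were higher and 594 lower in lymphocytes, and 636 of them passed with group weights too. Both settings used arrays U, V, Q, S and T, so the overlap is not independent support. The arrays of the cell types did not overlap for 3142 clones (41.7%), and for 1233 clones (16.4%) all lymphocyte arrays had one sign and all day 21 arrays the other, fewer than the 1553 (20.6%) with one sign on every array.

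Most clones showed little sharing of sign. The means of the cell types had the same sign for 4067 of 7529 clones (54.0%), where the shares of positive means alone give 50.0%. The means correlated with Pearson's r = 0.31 and Spearman's rho = 0.14 across clones, which are not independent replicates and share the arrays. Were the direction of one group turned, the same sign would be shared by 46.0% of clones and r would be -0.31.

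The sharing was found mainly among clones with large ratios that were high in the female sample. When clones were sorted by the size of the day 21 mean, the 10% with the largest means shared the sign for 75.7%, and the other bins of the same size for 47.8% to 54.7%. Within this top bin, it was shared by 79.4% of the clones high at day 21 and 58.5% of those low at day 21. The low clones of the other bins shared it for 47.7% to 56.7%. Sorted by the size of the lymphocyte mean, the top bin shared the sign for 65.5% and the others for 50.1% to 55.2%. In that top bin it was shared by 71.4% of the clones high in lymphocytes and 58.9% of the low ones. The low clones of the other bins shared it for 53.1% to 59.9%, so for low clones sharing did not grow with the lymphocyte size. Clones with a group mean of at least 2-fold and the same sign on every array of that group were then left out, for either cell type. Across the remaining clones r was 0.08.

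By array, the M values of lymphocytes followed those of Q, S and T but not of R. The r with the lymphocyte mean was 0.35 for Q, 0.29 for S and 0.33 for T, and -0.07 for R. It was 0.26 for array P as deposited. Without R the r of the group means was 0.35, and 55.1% of clones shared the sign. Leaving out single arrays gave an r of 0.22 to 0.39. The highest was without V, over 9692 clones rather than 7529, so the clones changed along with the array.

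The likeness was not confined to day 21. Of the other ES cell arrays, N of day 15, as deposited, had an r of 0.29 with the lymphocyte mean, C of day 0 had 0.24 and D of day 0 had 0.20. Arrays of the same day differed widely: O of day 15 had -0.06 and A of day 0 had 0.05, both as deposited, B of day 0 had 0.03, and on day 12 K had -0.19, L had -0.13 and M had 0.12. The arrays of days 2 to 7 lay between -0.05 and 0.15, and those of the inner cell mass, the part of the blastocyst from which ES cells derive, had 0.07 and 0.01.

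**Figure D2:**
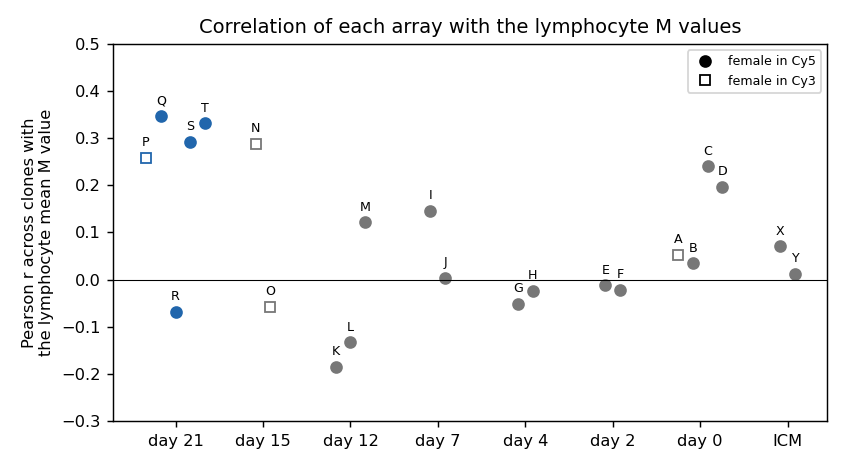
Pearson's r across clones (vertical axis, no unit) between the mean M value of the lymphocyte arrays and the M values of each other array, by day of differentiation (ICM, inner cell mass). Filled circles have the female sample in Cy5 and open squares in Cy3. Arrays Q, S, T and P of day 21 lie between 0.26 and 0.35 and array R lies at -0.07.

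Clones at the extremes were then counted, as those with a group mean of at least 1 in size, or 2-fold, and the same sign on every array of the group. There were 59 such clones in lymphocytes (0.784%), 39 high (0.518%) and 20 low (0.266%) in the female sample. At day 21 there were 1026 (13.6%), 679 high (9.02%) and 347 low (4.61%). In lymphocytes the last clone inside the limit was at 1.01 and the first outside at 0.99. At day 21 both lay at 1.00, with 154 clones within 0.1 inside the limit and 185 within 0.1 outside it.

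Clones extreme in lymphocytes only, with a day 21 mean under 0.5 in size, numbered 11. The 6 that were low in the female sample had medians of -1.39 on U and -1.42 on V, and each was at least 0.5 in size on both arrays. The 5 that were high had medians of 0.16 on U and 2.83 on V, and all 5 were under 0.5 on U. The high clones thus rest on array V alone. Clones extreme at day 21 only, with a lymphocyte mean under 0.5 in size, numbered 857, of which 528 were high and 329 low. Without R, over the clones with values on Q, S and T, they numbered 1152. Those extreme in lymphocytes only were again 11. The rest of the extreme clones, 18 of lymphocytes and 139 of day 21, were either between the limits in the other cell type or had arrays of differing sign there.

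None of the 11 and none of the 857 clones passed the test of the difference between the cell types, which no clone passed. An unadjusted limma p under 0.05 was found for 7 and 573 of them, beside 1721 of all 7529 clones. With group weights 4 of the 11 and 564 of the 857 passed, beside 1478 of all 7529. Without R, 4 of the 11 and 434 of the 836 that could be tested passed, beside 917 of all 7363. All 4 in either setting were lower in lymphocytes. Both sets were chosen by means that lay apart on these same arrays, which favours a pass. Their counts are therefore no separate support for a difference.

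**Figure D3:**
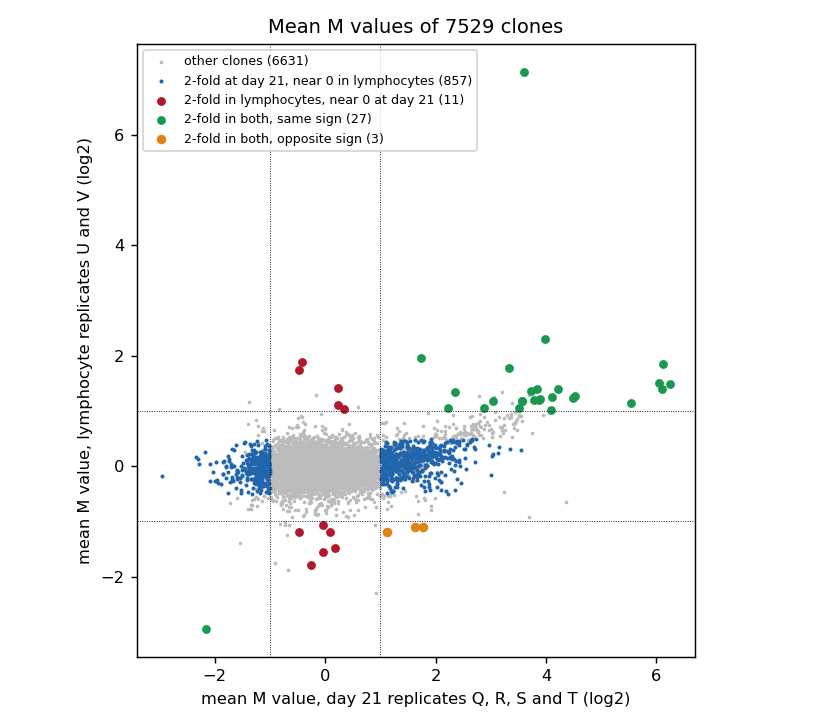
Mean M value (log2) of each of 7529 clones in lymphocytes (arrays U and V, vertical axis) against day 21 (arrays Q, R, S and T, horizontal axis), with dotted lines at 2-fold. Colours mark the 857 clones extreme at day 21 only, 11 in lymphocytes only, 27 in both with the same sign and 3 with opposite signs. The cloud is broad along the day 21 axis and narrow along the lymphocyte axis.

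Clones far from 0 at day 21 tended to the same side in lymphocytes when they were high, by small amounts. Of the 679 clones high at day 21, 62.0% were positive on both lymphocyte arrays and 16.2% negative on both, beside 38.1% and 38.7% of all clones, and their median lymphocyte mean was 0.18 against 1.65 at day 21. Of the 347 clones low at day 21, 42.9% were negative on both lymphocyte arrays and 30.5% positive on both, with a median lymphocyte mean of -0.03 against -1.21 at day 21. The low clones were thus close to all clones in lymphocytes. Array P, which had no part in choosing these clones, was, as deposited, positive for 480 of the 521 high clones with a value (92.1%, beside 48.3% of all clones) and negative for 181 of the 264 low clones (68.6%, beside 51.7%).

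Extreme clones that were shared were nearly all high in the female sample. There were 27 with the same sign in both cell types, 26 high and 1 low, and 3 with opposite signs. Without R, 34 had the same sign and 4 had opposite signs. The 26 high clones had medians of 1.15 on U and 1.42 on V in lymphocytes. At day 21 their medians were 5.54 on Q, 4.70 on S and 4.15 on T. On R, where 17 of them had a value, the median was 0.39, with a range of 0.01 to 4.93 and 2 clones above 1. Array R thus had most of them near 0. A value below 0 on R would have kept a clone out of the set. On array P, as deposited, the median was 4.85 and 21 of 22 were positive. They lay on 22 source plates of the clone library, with at most 3 on one plate, where 34 clones were tested. By their names these 3 lay in neighbouring positions. They had 7.18 to 7.39 on Q and no value on R, so they may not be separate observations. Whether several of them carry the same gene is not known here.

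The same 26 clones varied greatly among the other ES cell arrays. Their median was 2.88 on C of day 0 but 0.38 on D of day 0, and 2.22 on N of day 15 but -1.07 on O of day 15. On day 12 it was -3.11 on K and -2.92 on L, where at most 2 of the 26 were positive. On the arrays of day 7 it was -0.04 and 0.02, and on those of the inner cell mass 0.70 and -0.07. These clones were thus far from 0 on some arrays of a day and near it on others, and took either direction. The cause was not tested.

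**Figure D4:**
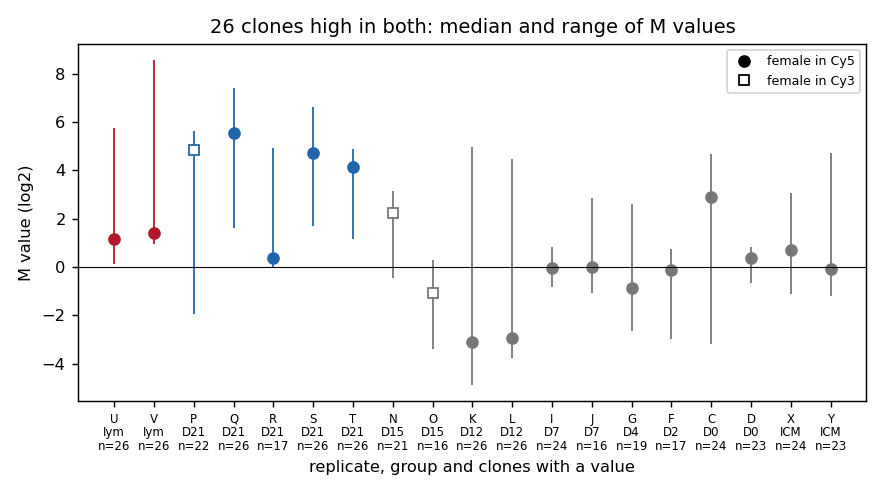
M values (log2, vertical axis) of the 26 clones high in lymphocytes and at day 21, on each array on which at least 10 of them had a value. Points are medians (filled, female in Cy5; open, female in Cy3), lines run from the lowest to the highest clone, and n is the number of clones with a value. Medians are 4.15 to 5.54 on Q, S, T and P, 1.15 and 1.42 on U and V, and -3.11 and -2.92 on K and L.

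Since no clone passed the test of the difference, 4 clones are named from the extremes, chosen after their values were seen. Clone H3151f03 had the highest mean in lymphocytes, with M values of 5.73 on U and 8.55 on V, far above the next clone at 2.30. At day 21 it had 1.62 on Q, 4.93 on R, 3.76 on S and 4.12 on T, so the cell types did not overlap. The means were 7.14 and 3.61, and the difference of 3.54 (SE 1.07) did not pass the limma test (adjusted p = 0.143). It was positive on 14 of the 15 arrays with a value, among them 4.96 and 4.48 on day 12 and 3.06 and 4.71 in the inner cell mass. The exception was array P, at -1.94 as deposited, a sign that rests on the orientation of P, and it was at 0.02 on C, the day 0 array on which it had a value.

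Clone H3073b09 had the highest day 21 mean of the clones high in both, and was among the 3 in neighbouring positions of one plate. In lymphocytes it had 1.41 on U and 1.59 on V, and at day 21 it had 7.20 on Q, 6.64 on S and 4.88 on T, with no value on R. The lymphocyte values were alike and far below all day 21 values (difference -4.74, SE 0.69, limma adjusted p = 0.106). It had 4.41 on array P, -4.85 on K and -3.49 on L.

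Clone H3079h10 had the lowest mean in lymphocytes and was the clone low in both cell types. Its M values were -2.84 on U and -3.06 on V, and -2.30, -1.78, -2.30 and -2.23 on Q, R, S and T. It was negative on all 21 arrays of the series on which it had a value, including -4.04 on array P, with arrays P, N, O and A as deposited. The difference of -0.80 (SE 0.24) between the cell types did not pass the limma test (adjusted p = 0.146).

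Clone H3004h05 was the lowest of the clones extreme in lymphocytes only. It had -1.76 on U and -1.82 on V, and 0.26, -0.87, -0.08 and -0.34 on Q, R, S and T, without overlap (difference -1.53, SE 0.33, limma adjusted p = 0.107). It was negative on 22 of the 24 arrays, with -1.49 on D and -1.27 on A of day 0, -1.30 on L of day 12 and -1.12 on E of day 2, so that values below -1 were not confined to lymphocytes. On array P, as deposited, it was at -1.35, outside the range of the other day 21 arrays and nearer to lymphocytes.

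**Figure D5:**
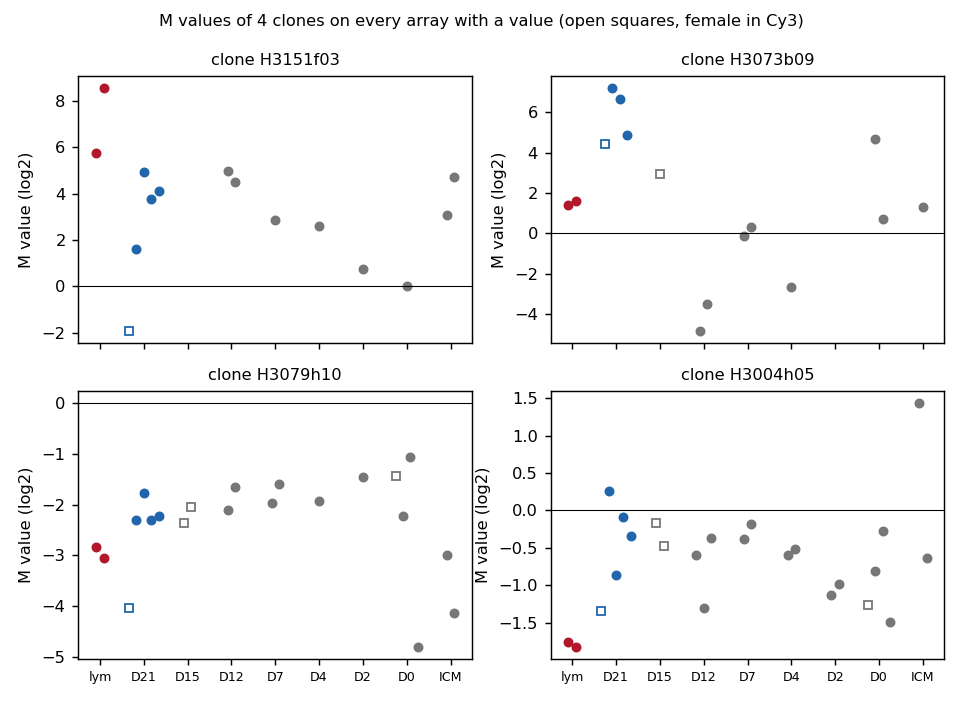
M values (log2, vertical axis) of 4 clones on every array on which each had a value, by cell type and day (lym, lymphocytes; ICM, inner cell mass). Filled circles have the female sample in Cy5 and open squares in Cy3. H3151f03 is highest in lymphocytes, H3073b09 is highest at day 21, H3079h10 is below 0 throughout and H3004h05 is lowest in lymphocytes.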

How the data were processed

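The cDNA made from total RNA of female and male cells had been labelled with the 2 dyes and co-hybridised to slides of mouse cDNA clones. The authors extracted the spots with GenePix 6.0. Normalisation was done in Gepas, by a method that the sources used here do not give, nor do they say when a value was left missing. Each deposited value is a log2 ratio of a clone on an array. Spot intensities were not used here, and the small number of arrays limits the precision. The compared arrays had values for 7967 (V) to 13736 (T) clones, and array P had 7683.

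The median of each array was subtracted. Clones were tested with limma 3.58.1 in R 4.3.3 (lmFit, eBayes, Benjamini-Hochberg over all clones of the comparison), within each cell type against 0 and between cell types in one model, and the code was tested on simulated data. The spread per array was the median absolute deviation with R's scaling, compared by exact permutation over arrays. Shares of sign and correlations are descriptions. The planned rule for named clones, those with the largest difference past the test, gave none. The planned marker genes were not used, since clones could not be matched to genes. The members, limits and tests were chosen with earlier results of these data known. Alternatives were other centring, scaling, filters, array weights, plate means and leaving out each array. Others, chosen after seeing the data, were the clones extreme in both left out, Spearman's rho, P as the only day 21 array, unequal-variance errors and all 20 ES cell arrays.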

Additional observations from a re-analysis of the deposited data

Results flagged for a closer look

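Array R of day 21 lay apart from Q, S and T in its correlation with the lymphocyte mean, at r = -0.0691 beside 0.292 for the next array. Clone H3079h10 also had its day 21 value farthest from the others on R, at -1.78 beside -2.23 for the next. These were 2 of 9 day 21 measures examined for an array far from the other 3, a rule by which chance marks about 1 in 20.

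The 3 clones extreme in both cell types with opposite signs were low in lymphocytes and high at day 21. One sign on every array of a group with a value was part of the rule that chose them. Their differences, lymphocytes minus day 21, were -2.31, -2.73 and -2.88, and did not pass the limma test (adjusted p = 0.107, 0.106 and 0.105). On array P, as deposited, the second was at -2.96 and the third at 3.15, and the first had no value. Whether P shares the sign of the other day 21 arrays for a clone rests on its orientation, which the sources do not give.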

How the results depend on the processing

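Over all alternatives and results, 152 values kept their direction and side of the threshold (104 of whole comparisons), 31 moved, all of whole comparisons, 11 of named clones passed the threshold that they had missed, and 1 reversed. The count of clones with a called difference between the cell types, 0 as reported, was 776 (417 higher, 359 lower in lymphocytes) with the arrays scaled to one spread, 1478 with group weights, 0 to 917 when single arrays were left out, 2201 by differences over 3 unequal-variance errors (no p), and 4504 with P as the only day 21 array. The last setting assumes that a lone array of day 21 varies as little as lymphocytes, which Q, R, S and T did not, and it turned clone H3079h10 to 1.09. In one model with a shared spread, 1 clone was called in lymphocytes and 2722 at day 21. Leaving out single arrays gave 0 to 1868 calls at day 21 and 0 in lymphocytes, where a lone array was fitted with the spread of day 21. Clones extreme in lymphocytes only, 11 as reported, were 229 with scaled arrays, 37 with no filter, 6 with plate means subtracted, 39 as the outer 1%, and 11 to 40 without single arrays. Clones extreme at day 21 only, 857 as reported, were 188, 1554 with no filter, 36 as the outer 1%, and 759 to 1352 without single arrays. Those extreme in both with the same sign were 133, 65, 47, and 18 to 50 in the same order. Those with opposite signs were 12, 7, 1 as the outer 1%, 1 with P added, and 2 to 8. The counts of extremes thus depend on whether arrays are scaled. They also cover differing sets of clones, 10546 with no filter and 9692 without V, beside 7529 as reported. Sharing of sign stayed between 52.6% and 56.6% and r between 0.22 and 0.39 without single arrays. No paired analysis was possible because the cell types share no replicate labels.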

Other observations

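A further 252 clones had values on both lymphocyte arrays but on fewer than 3 of the day 21 arrays, and 3850 had values on at least 3 day 21 arrays but not on both lymphocyte arrays. The comparison therefore leaves out more clones measured at day 21 than clones measured in lymphocytes. Lymphocyte array V had a value for 7967 clones and U for 10433.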
